A study of Mus musculus with 32 samples.

Results

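The collagen chains are the genes whose name on the array follows the pattern Col, a type number, the letter a and a chain number. The array carried 66 such probes for 44 genes, of 33253 named genes in all: 11 genes of fibrillar collagens, 8 of basement membrane collagens and 25 of other collagens. Probes had to exceed background clearly in every one of the 4 mice of some group, and 57 probes of 41 genes passed. A gene that passed only through the group in which it was high was bound to differ, so the 41 are not a random draw of the 44. Col28a1, Col6a6 and Col9a3 did not pass in any group, and 34 genes had a probe well above background on all 32 arrays. Each gene is reported on its brightest passing probe, and 10 genes had more than 1 passing probe.

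Whole lungs of 32 C57Bl/6J mouse pups, from 8 groups of 4 pups with an array for each pup, were measured on one-colour mouse gene expression arrays. Pups of both sexes were kept in 21% O2 (normoxia) or in 85% O2 (hyperoxia) from birth, a model of bronchopulmonary dysplasia, the chronic lung disease of preterm infants in which the formation of alveoli is arrested. All pups received an antimiR by intraperitoneal injection, either antimiR-34a, an oligonucleotide that blocks the microRNA miR-34a, or a scrambled antimiR as control, so no group was left without an injected oligonucleotide. Lungs, rinsed of blood through the heart, were taken at postnatal day (P)5 or P14, which the labels give as later by part of a day. Per the labels, P5 mice were killed with pentobarbital and P14 mice with isoflurane. Beyond these treatments the mice carried no altered allele. The comparisons ask how the oxygen level, the age and the antimiR change the collagen chains of the developing lung.

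Collagens are proteins of the extracellular matrix whose chains wind around each other in a helix of 3 chains, for which glycine must return at regular steps along the chain. Fibrillar collagens (types I, II, III, V, XI, XXIV and XXVII) assemble into the fibres that bear tension. Type IV chains form the sheet-like network of basement membranes, to which types XV and XVIII are attached, and in the lung this network lies between the epithelium and the capillaries. FACIT collagens sit on the surface of fibrils, type VI forms beaded filaments, and types XIII, XVII, XXIII and XXV span the cell membrane. During alveolarization, collagen and elastin fibres are laid down in the septa that divide the air spaces.

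The sequences below show the repeat that defines the family, the shared promoter of the main type IV chains, and the microRNA that was blocked. Probes of Col25a1 (mm9 chr3:130270497-130270556, plus strand) and Col15a1 (mm9 chr4:47283786-47283845, plus strand) carry a repeat of the kind that codes for the helix. Their place in the transcript was not checked against an annotation. Capitals mark GG, the start of a glycine codon, which returns at steps of 9 bases.
Col25a1 probe: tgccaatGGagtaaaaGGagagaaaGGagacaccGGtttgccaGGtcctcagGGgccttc
Col15a1 probe: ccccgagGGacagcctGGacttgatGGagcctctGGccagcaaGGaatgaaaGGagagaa
A GG at each 9-base step of one frame was found in 6 of 55681 mouse probes (0.011%), of which 2 were among the 66 collagen probes (3.03%). The Col15a1 probe shown is the brightest of its gene, whereas the Col25a1 probe shown is not.

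Col4a1 and Col4a2 encode the chains of the main type IV network and lie head to head. The windows from 250 bases before to 50 bases after each start are given from RefSeq on GRCm38.p6 (Col4a1 chr8:11312777-11313076, minus strand; Col4a2 chr8:11312555-11312854, plus strand), each written along its own gene, with the 78 bases that both windows share in capitals.
Col4a1: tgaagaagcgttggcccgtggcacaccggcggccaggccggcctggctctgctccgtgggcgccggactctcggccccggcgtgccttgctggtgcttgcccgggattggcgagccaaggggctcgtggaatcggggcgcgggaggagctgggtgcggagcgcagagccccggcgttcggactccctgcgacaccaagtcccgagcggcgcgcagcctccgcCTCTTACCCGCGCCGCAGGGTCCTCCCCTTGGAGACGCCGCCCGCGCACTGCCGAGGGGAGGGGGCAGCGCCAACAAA
Col4a2: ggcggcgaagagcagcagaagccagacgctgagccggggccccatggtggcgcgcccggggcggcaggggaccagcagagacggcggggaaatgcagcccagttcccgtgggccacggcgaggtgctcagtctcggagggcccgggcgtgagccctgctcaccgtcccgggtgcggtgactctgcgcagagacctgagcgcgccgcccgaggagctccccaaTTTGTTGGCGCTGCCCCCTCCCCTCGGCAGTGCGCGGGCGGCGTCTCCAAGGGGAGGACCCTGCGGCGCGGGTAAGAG
The starts lie 21 bases apart, so the shared stretch is the same DNA read on opposite strands. The windows have a GC content of 74% and 73.7%, against a median of 52.7% over all promoter windows. The table held a window for 33 of the collagen genes, 36 windows in all. GC boxes (GGGCGG, either strand) were found in 22 of the 36 collagen windows (61.111%) and in 35.658% of all 32851 windows, with 1 in the Col4a1 window and 3 in the Col4a2 window. CCAAT on either strand was found in 36.111% of collagen windows and 37.408% of all windows, and TATAAA in 13.889% and 13.616%. A match is a description of these letters and not a binding site. Col4a5 and Col4a6, another head-to-head pair, have starts 1343 bases apart, so their windows do not overlap.

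The microRNA targeted by antimiR-34a is given from RefSeq (GRCm38.p6 chr4:150068473-150068494, plus strand), with bases 2 to 8, the seed that pairs with target transcripts, in capitals.
mmu-miR-34a-5p: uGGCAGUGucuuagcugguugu
The match to this seed, CACTGCC, was found in 250 of 55681 mouse probes (0.449%) and in 0 of the 66 collagen probes. This says only that these letters are not in the stretches the probes read.

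Levels are given as log2 of the processed spot intensity minus the 75th percentile of the array, called relative levels below, and differences as differences of these log2 values ± SE. A change was called at an adjusted p under 0.05 over all tested probes (limma, Benjamini-Hochberg). Between 33607 and 40776 probes per array were well above background, no spot was saturated, and all 8 lung epithelium markers were well above background on all arrays. There were 4 slides, with 8 arrays apiece, and any given slide carried a single age and oxygen level. Oxygen level and age therefore cannot be told apart from slide, and the antimiRs lay on different array rows of a slide. P5 and P14 arrays were also scanned on different days, so age cannot be told apart from scan day. Of the arrays, 6 stood apart by brightness or by markers of other tissues. Mouse 4 of the P5, 21% O2, scrambled group had a summed skeletal muscle marker level of 7.37, against 1.88 to 3.48 in the other mice of its group, and mouse 2 of the P14, 85% O2, antimiR-34a group had a summed mesothelium marker level of 7.10, against 5.51 to 5.81. The comparisons were also computed without these 6 arrays, and values without them are given beside many of the results.

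In 85% O2 at P5, the collagen classes moved in different directions. In scrambled antimiR mice, 7 of 8 basement membrane collagens were higher and none lower, with a median difference of 0.59, whereas 0 of 11 fibrillar collagens were higher and 6 lower, with a median of -0.33. Over all genes tested the median was -0.03. Of the 20 other collagens tested, 3 were higher and 5 lower. In all, 10 of 39 collagen genes were higher and 11 lower, and among all genes tested 21.5% were called higher and 24.1% lower. Basement membrane collagens exceeded the share called higher and fibrillar collagens the share called lower. In whole lungs, fewer cells of a type and less RNA per cell cannot be told apart.

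In antimiR-34a mice, which are other animals on the same slides, 7 of 8 basement membrane collagens were again higher at P5 and none lower, with a median of 0.45, and 1 of 11 fibrillar collagens was higher and 5 lower, with a median of -0.27. The collagens called were 11 higher and 10 lower of 39, against 21.4% and 26.3% of all genes. Of the collagens called in both antimiR groups at P5, 9 were higher in both and 8 lower in both, and none was called in opposite directions. Without the arrays that stood apart, the P5 counts of basement membrane and fibrillar collagens were the same in both antimiR groups. In scrambled antimiR mice the other collagens called higher numbered 5 in place of 3 without those arrays, with the addition of Col8a1 and Col20a1.

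At P14 the classes were more mixed. In scrambled antimiR mice, 11 of 40 collagens were higher and 12 lower, against 29.9% and 31.2% of all genes. Basement membrane collagens counted 4 higher and none lower of 8 with a median of 0.29, fibrillar collagens 3 higher and 3 lower of 10 with a median of 0.04, and other collagens 4 higher and 9 lower of 22 with a median of -0.32, beside a median of -0.03 over all genes. In antimiR-34a mice, 15 were higher and 14 lower of 40, against 31.6% and 34.1% of all genes, with 7 of 8 basement membrane collagens higher and 11 of 22 other collagens lower. The shares over all collagens lay near those of all genes in scrambled antimiR mice. Without the arrays that stood apart, 5 in place of 7 basement membrane collagens were called higher in antimiR-34a mice and 9 in place of 11 other collagens lower. Of the genes called in both antimiR groups at P14, 10 were higher in both and 11 lower in both, with none opposite.

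**Figure D1:**
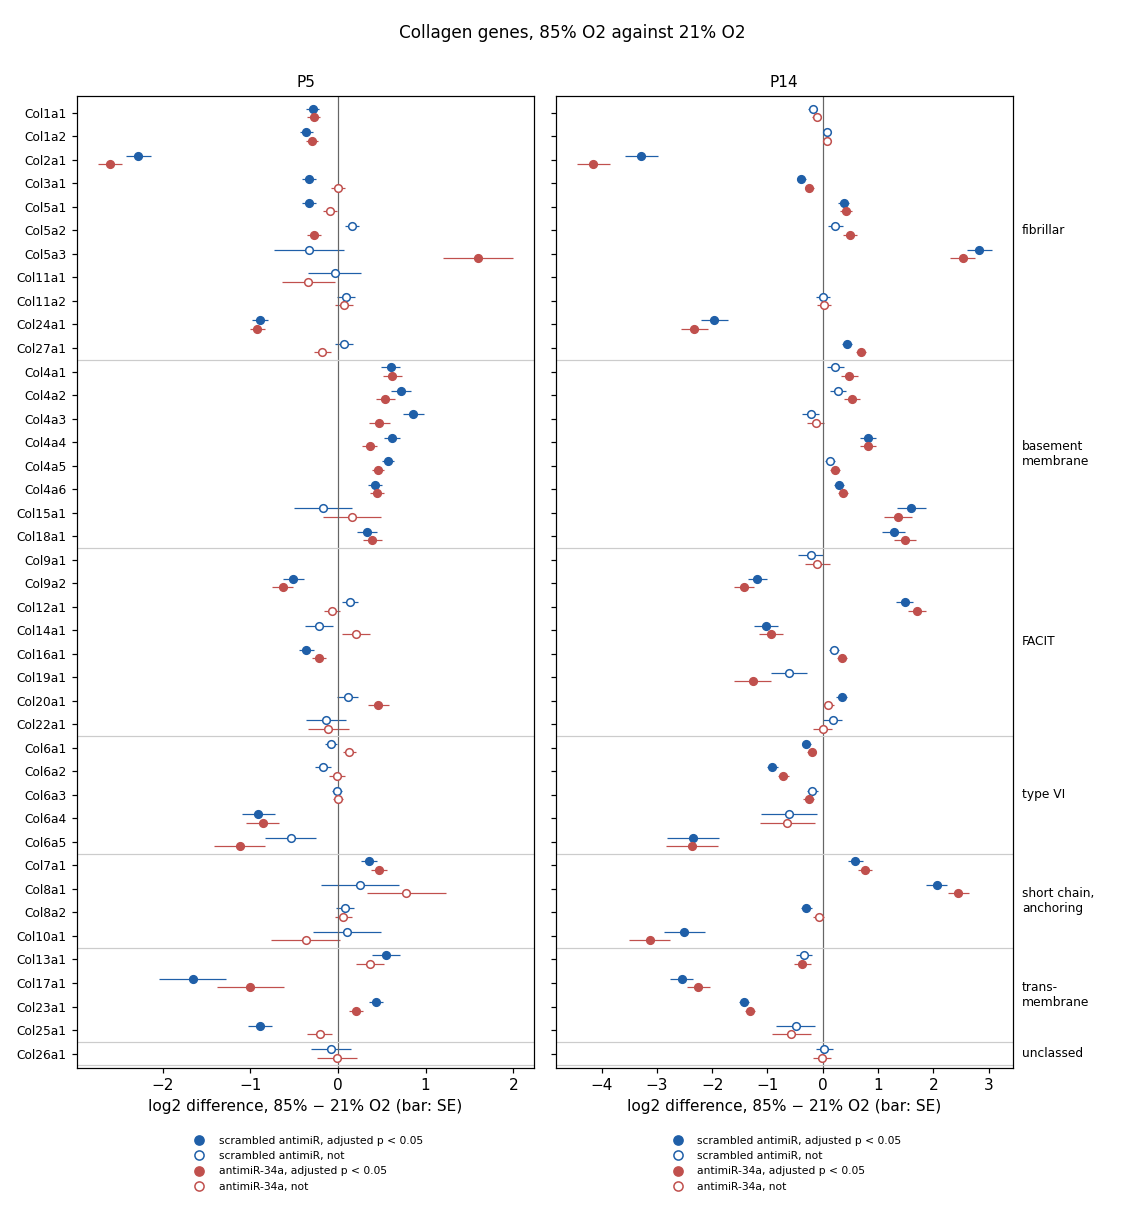
Log2 difference between 85% O2 and 21% O2 (x axis; bars are SE) for each tested collagen gene (y axis, by class) at P5 (left) and P14 (right), in scrambled antimiR mice (blue) and antimiR-34a mice (red), with filled points for adjusted p under 0.05. All 6 type IV chains lie to the right of 0 at P5 in both antimiR groups, and at P14 the points run from Col2a1 at -4.15 to Col5a3 at 2.83.

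On their brightest probe, all 6 type IV chains rose in 85% O2 at P5 in both antimiR groups. In each of these 12 comparisons the 4 hyperoxic mice lay above the 4 normoxic mice. Relative levels of Col4a1 in scrambled antimiR mice were 5.15, 5.24, 5.37 and 5.22 in 21% O2 and 5.56, 5.97, 5.82 and 6.05 in 85% O2, a difference of 0.60 ± 0.11 (adjusted p = 0.00069). Col4a2, its partner chain, read 4.90, 4.98, 5.12 and 4.77 in 21% O2 and 5.34, 5.73, 5.72 and 5.87 in 85% O2, a difference of 0.72 ± 0.11 (adjusted p = 0.000131). For both genes mouse 1 was the lowest of the hyperoxic group. Col4a3, Col4a4 and Col4a5 form the network of mature alveolar and glomerular basement membranes. Col4a3 went from 0.49, 0.53, 0.81 and 0.31 to 1.38, 1.33, 1.40 and 1.5, a difference of 0.86 ± 0.12. Among the type IV chains this was the widest difference in scrambled antimiR mice at P5. The differences were 0.62 ± 0.09 for Col4a4, 0.57 ± 0.07 for Col4a5 and 0.42 ± 0.08 for Col4a6. In antimiR-34a mice the 6 differences ran from 0.36 to 0.62. The lowest was that of Col4a4, whose other probes gave 0.27 and 0.10 there without passing.

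At P14 the type IV chains no longer moved together. Relative levels of Col4a4 were 3.29, 3.33, 3.33 and 3.13 in 21% O2 and 4.15, 4.33, 3.96 and 3.89 in 85% O2, a difference of 0.82 ± 0.15 (adjusted p = 0.000426), and the groups did not overlap. Its other passing probes rose by 1.29 and 1.77 in the same mice. Col4a3 in the same mice read 1.81, 1.92, 1.57 and 1.77 in 21% O2 and 1.69, 1.89, 1.29 and 1.32 in 85% O2, and these groups overlapped (-0.22 ± 0.16, adjusted p = 0.24). Col4a1, Col4a2 and Col4a5 differed by 0.23, 0.28 and 0.13 in scrambled antimiR mice and did not pass the test, and by 0.48, 0.53 and 0.22 in antimiR-34a mice, where they passed. These antimiR-34a calls were lost with the methods' t-test, and that of Col4a5 also with quantile normalization (0.04, adjusted p = 0.714), the authors' table, normexp, no filter on dim probes, only the compared groups, and without the arrays that stood apart (0.23, adjusted p = 0.1). That of Col4a1 was lost with quantile normalization (0.30, adjusted p = 0.0691) and the authors' table. The test of this difference between the antimiRs passed for none of the collagens, as given below.

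In the antimiR-34a group at P14 in 85% O2, Col4a1 read 6.07, 6.72, 6.11 and 6.01 and Col4a2 6.01, 6.59, 5.88 and 6.01. The mouse with the highest value in both was mouse 2, the one with the high mesothelium markers, and Col4a1 without the arrays that stood apart differed by 0.33 (adjusted p = 0.0585). The part of mesothelium in this was not tested. Of the mesothelium markers 6 were tested, and their summed level ranged over 5.01 to 5.21 in 21% O2 and 5.58 to 6.07 in 85% O2 in scrambled antimiR mice at P14. At P5 it ranged over 5.34 to 5.76 and 5.63 to 6.07. The markers did not move together at P14 in scrambled antimiR mice, where Msln rose by 0.86, Upk3b and Upk1b changed by -1.02 and -0.95, and Krt19 (0.51), Lrrn4 (-0.75) and Wt1 (-0.37) did not pass. Col4a6 rose by 0.30 ± 0.09 and 0.36 ± 0.09 at P14 in the 2 antimiR groups. Its second passing probe read the other way, with -0.18 and -0.24 at P5 (adjusted p = 0.0876 and 0.0299) and -0.13 and -0.14 at P14, so the rise of Col4a6 rests on 1 probe. By the median over its probes Col4a6 gave 0.12 and 0.11 at P5 (adjusted p = 0.191 and 0.236) and passed at neither age.

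**Figure D2:**
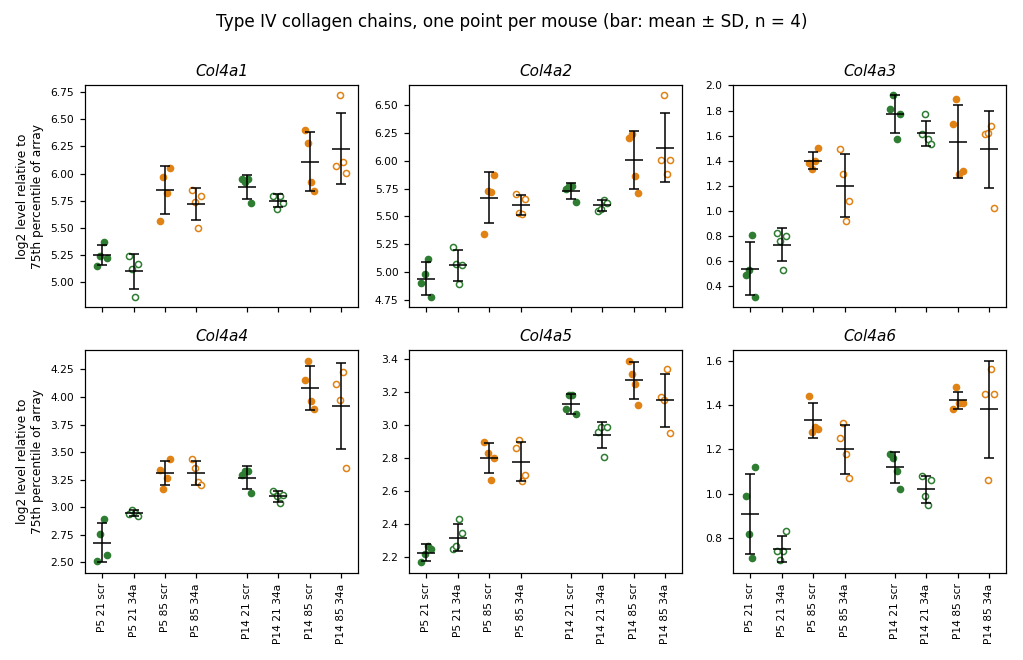
Relative level (y axis; log2, over the 75th percentile of the array) of the 6 type IV chains in each mouse, by age, oxygen level (green 21% O2, orange 85% O2) and antimiR (filled scrambled, open antimiR-34a), with mean ± SD of 4 mice. At P5 the orange points lie above the green points in all 6 panels, and at P14 the groups of Col4a4 in scrambled antimiR mice are apart while those of Col4a3 overlap.

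Col18a1, whose end fragment is endostatin, an inhibitor of vessel growth, rose at both ages. In scrambled antimiR mice at P14, relative levels were 3.38, 3.42, 3.50 and 3.24 in 21% O2 and 5.19, 4.79, 4.46 and 4.20 in 85% O2, a difference of 1.28 ± 0.20 (2.42-fold, adjusted p = 0.000109), and 1.48 ± 0.20 in antimiR-34a mice. Its second probe gave 1.55 and 1.91. At P5 the differences were 0.33 ± 0.11 and 0.39 ± 0.11, and the scrambled groups overlapped there through mouse 1 in 85% O2 at 3.14. The P5 call in scrambled antimiR mice was lost with the methods' t-test, with quantile normalization (0.25, adjusted p = 0.0583) and without any 1 of 4 mice, mouse 3 in 21% O2 or mice 2, 3 and 4 in 85% O2 (0.28 to 0.31). Col15a1, a basement membrane collagen that holds vessels and muscle in the surrounding matrix, depended on the probe. On its brightest probe it rose by 1.60 ± 0.26 (3.03-fold) and 1.36 ± 0.26 at P14, whereas its other 2 probes gave -0.12 and -0.30 in scrambled and -0.42 and -0.35 in antimiR-34a mice. The P5 differences of these 2 probes were -0.55 and -0.61 in scrambled antimiR mice, the first passing (adjusted p = 0.0451). At P14 the -0.42 passed the test (adjusted p = 0.0209), so the probes of this gene were called in opposite directions. Nothing in the data says which transcript each probe reads.

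Of the 6 fibrillar chains of types I, III and V, which make up the bulk of the interstitial fibres, 4 were lower at P5 in scrambled antimiR mice (Col1a1, Col1a2, Col3a1 and Col5a1), and 3 were lower and 1 higher in antimiR-34a mice. Relative levels of Col1a1 in scrambled antimiR mice were 6.62, 6.50, 6.43 and 6.57 in 21% O2 and 6.49, 6.18, 6.10 and 6.20 in 85% O2, a difference of -0.29 ± 0.07 (adjusted p = 0.00656). Mouse 1 of the hyperoxic group lay within the range of the normoxic mice, and the call was lost with the methods' t-test (adjusted p = 0.0849). Col1a2 read 7.80, 7.77, 7.72 and 7.86 against 7.61, 7.38, 7.35 and 7.36, a difference of -0.36 ± 0.07 (adjusted p = 0.000731) with groups that did not overlap. The corresponding differences in antimiR-34a mice were -0.28 ± 0.07 for Col1a1 and -0.30 ± 0.07 for Col1a2, and both passed. Col3a1, the chain of the fine reticular fibres, differed by -0.33 ± 0.08 in scrambled and 0.00 ± 0.08 in antimiR-34a mice. The normoxic groups of Col3a1 did not overlap between the antimiRs, though that difference did not pass the test (adjusted p = 0.195), at 6.73, 6.60, 6.62 and 6.92 with the scrambled antimiR and 6.39, 6.56, 6.48 and 6.51 with antimiR-34a.

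By P14 the type I chains no longer differed with oxygen beyond their test. Col1a1 differed by -0.18 ± 0.08 (adjusted p = 0.0599) and Col1a2 by 0.07 ± 0.06 (adjusted p = 0.367) in scrambled antimiR mice. Col3a1 was lower at P14 in both antimiR groups. In scrambled antimiR mice it read 7.38, 7.24, 7.26 and 7.27 in 21% O2 and 6.93, 6.88, 6.96 and 6.84 in 85% O2, a difference of -0.39 ± 0.08 (1.31-fold, adjusted p = 0.000573), and in antimiR-34a mice the difference was -0.24 ± 0.08. The latter call was lost with only the compared groups in the fit (adjusted p = 0.0527) and with the methods' t-test (adjusted p = 0.0825). Col5a1, a chain of type V, which sets the diameter of type I fibrils, was the one collagen called lower at P5 and higher at P14 in scrambled antimiR mice. It read 3.92, 3.74, 3.83 and 4.05 in 21% O2 and 3.64, 3.56, 3.39 and 3.60 in 85% O2 at P5, and 3.45, 3.46, 3.57 and 3.34 against 3.93, 3.79, 3.74 and 3.87 at P14. The differences were -0.33 ± 0.08 and 0.38 ± 0.10, and the groups were apart at both ages. In antimiR-34a mice Col5a1 differed by -0.09 ± 0.08 at P5 and rose by 0.42 ± 0.10 at P14. Col5a2 was called in antimiR-34a mice, with -0.27 ± 0.08 at P5 (lost with only the compared groups in the fit, adjusted p = 0.0503, and with the methods' t-test, 0.0757) and 0.49 ± 0.13 at P14, and differed by 0.16 and 0.23 in scrambled antimiR mice without passing.

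Col5a3, the third chain of type V, had the largest rise of any collagen tested. At P14 in scrambled antimiR mice its relative levels were 0.05, -0.22, -0.29 and -0.48 in 21% O2 and 2.73, 2.85, 2.23 and 2.58 in 85% O2, a difference of 2.83 ± 0.23 (7.13-fold, adjusted p = 2.96e-07). In antimiR-34a mice the rise was 2.53 ± 0.23 (5.79-fold). The hyperoxic mice of both groups lay above all normoxic mice. At P5 the scrambled normoxic mice read -0.64, -1.85, -1.72 and 0.49, the last being mouse 4 with the skeletal muscle markers, and the difference was -0.33 ± 0.40 with that mouse and 0.14 ± 0.29 without the arrays that stood apart, neither passing. In antimiR-34a mice at P5 the levels of -2.37, -1.85, -2.21 and -2.20 became -0.39, -0.50, -0.71 and -0.64, a rise of 1.60 ± 0.40 (adjusted p = 0.00449). The same normoxic mouse 4 was also the highest of its group for Col8a1 (-3.19 against -6.32 to -5.33), Col17a1 (-0.86 against -3.22 to -2.76) and Col6a5 (-3.05 against -4.31 to -4.24). The part of muscle or fat tissue in these values was not tested.

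Col2a1, the fibrillar collagen of cartilage, had the largest fall. Relative levels in scrambled antimiR mice were -0.73, -0.57, -0.68 and -0.70 in 21% O2 and -3.00, -2.87, -2.93 and -3.02 in 85% O2 at P5, a difference of -2.28 ± 0.14 (4.87-fold lower, adjusted p = 4.28e-08). At P14 they were -0.63, -1.75, -1.04 and -1.03 against -3.92, -4.55, -5.04 and -4.07, a difference of -3.28 ± 0.30 (9.71-fold lower). In antimiR-34a mice the falls were 6.07-fold at P5 and 17.7-fold at P14. All hyperoxic mice at each age lay below all normoxic mice of that age. Col9a2, a FACIT chain of cartilage fibrils, differed by -0.51 ± 0.12 at P5, not called by the methods' t-test (adjusted p = 0.0927), and -1.18 ± 0.18 at P14. Col10a1, the collagen of hypertrophic cartilage, read -2.29, -2.02, -1.95 and -2.02 in 21% O2 at P14 and -3.92, -4.95, -5.14 and -4.27 in 85% O2, 5.65-fold lower, and did not pass the test at P5 (0.10 ± 0.39).

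The lungs can include airway cartilage, and the other cartilage markers did not fall together. Of 11 cartilage markers on the array 6 were tested, and in scrambled antimiR mice 1 rose and 2 fell at P5, while 2 rose and 3 fell at P14. Chad changed by -1.80 and -1.98 and Cytl1 by -0.75 and -0.66 at P5 and P14, Acan, the main cartilage proteoglycan, gave -0.41 (adjusted p = 0.108) and changed by -0.95 at P14, and Comp gave -0.53 and -0.59 without passing. Hapln1, the link protein of cartilage, rose by 1.31 and 2.69, and Matn4 gave -0.59 without passing at P5 and rose by 1.24 at P14. The summed cartilage marker level ranged over 2.99 to 3.18 in 21% O2 and 2.21 to 3.61 in 85% O2 at P5, and over 2.39 to 3.48 and 3.78 to 4.19 at P14. The part of cartilage in the fall of Col2a1, Col9a2 and Col10a1 was not tested. Col24a1, a minor fibrillar chain, fell at both ages, from -1.38, -1.64, -1.33 and -1.37 to -2.32, -2.27, -2.40 and -2.29 at P5 (-0.89 ± 0.09) and by -1.96 ± 0.25 at P14. Col27a1, a fibrillar chain known from developing cartilage, rose by 0.44 ± 0.09 and 0.69 ± 0.09 at P14. Col11a2 did not pass in any oxygen comparison (0.01 to 0.09), nor did Col11a1 at P5, and Col11a1 was not tested at P14.

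Among the FACIT collagens, Col12a1 and Col14a1, both found on type I fibrils, moved in opposite directions at P14. Relative levels of Col12a1 were 0.61, 0.70, 0.46 and 0.58 in 21% O2 and 2.18, 2.03, 2.01 and 2.05 in 85% O2 in scrambled antimiR mice, a rise of 1.48 ± 0.16 (2.78-fold, adjusted p = 4.58e-06). Those of Col14a1 were 2.94, 3.11, 2.99 and 3.07 against 1.93, 1.92, 2.15 and 2.01, a difference of -1.03 ± 0.22 (2.04-fold). Its second probe gave -1.79 in the same mice. Neither gene passed at P5 in either antimiR group on its brightest probe, though the second probe of Col14a1 was called higher in antimiR-34a mice (0.64, adjusted p = 0.0411). Col16a1 on its brightest probe was lower at P5 (-0.36 ± 0.08 and -0.22 ± 0.08, the second not called by the methods' t-test, adjusted p = 0.0842) and higher at P14 in antimiR-34a mice (0.34 ± 0.09). A further probe of this gene gave 0.22 at P5 in scrambled antimiR mice (adjusted p = 0.168) and fell at P14 (-0.50 and -0.67). Col20a1 was called higher at P14 with the scrambled antimiR (0.34 ± 0.10) and at P5 with antimiR-34a (0.46 ± 0.12). Without the arrays that stood apart its P14 value was 0.21 (adjusted p = 0.0781). Col22a1 passed in no oxygen comparison. Col19a1 and Col9a1 lay near background. Col19a1 was at least 2.26-fold lower in 85% O2 at P14 in antimiR-34a mice, where none of the 4 hyperoxic arrays was well above background. It passed the filter only through the 21% O2 groups at P14, so lower values in 85% O2 were favoured in advance. It counts among the other collagens called lower there.

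Of the beaded filament chains, the Col6a1, Col6a2 and Col6a3 trimer that surrounds cells differed little at P5, with differences of -0.17 to 0.13 over both antimiR groups and no call. At P14 Col6a2 fell, from 4.01, 4.07, 4.08 and 3.81 to 3.23, 3.13, 2.94 and 3.01 in scrambled antimiR mice (-0.91 ± 0.10, 1.88-fold, adjusted p = 4.38e-06) and by -0.71 ± 0.10 in antimiR-34a mice. Its partners moved less. Col6a1 changed by -0.30 ± 0.08 and -0.20 ± 0.08, and Col6a3 gave -0.19 ± 0.10 (adjusted p = 0.109) and -0.25 ± 0.10. The calls of Col6a1 and Col6a3 in antimiR-34a mice were lost without the arrays that stood apart (-0.22 and -0.20, adjusted p = 0.0553 and 0.179). Col6a4 fell at P5 by -0.91 ± 0.19 and -0.86 ± 0.19, and at P14 gave -0.61 ± 0.50 and -0.64 ± 0.50. In the antimiR-34a group at P14 in 85% O2 it read -1.61 in mouse 1 and -4.80 to -4.45 in the others. Col6a5 was well above background on 0 of 4 arrays in both hyperoxic groups at P14, so only a bound can be given, at least 1.96-fold lower with the scrambled antimiR, where 3 of 4 normoxic arrays were well above background, and at least 2.73-fold lower with antimiR-34a. Under normexp background correction the direction turned with the scrambled antimiR (0.05, adjusted p = 0.845) and the call was lost with antimiR-34a (-0.33, adjusted p = 0.136). At P5 it gave -0.54 ± 0.29 (adjusted p = 0.143) and, in antimiR-34a mice, -1.12 ± 0.29, where 2 of 4 hyperoxic arrays were well above background. That call was lost under normexp (-0.27, adjusted p = 0.0646) and with the methods' t-test (adjusted p = 0.0639).

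Col8a1, a short chain collagen of vessel walls, was the strongest riser outside the fibrillar class. Its relative levels at P14 were -4.25, -4.32, -4.25 and -4.44 in 21% O2 and -2.34, -2.44, -1.88 and -2.36 in 85% O2 with the scrambled antimiR, a rise of 2.06 ± 0.19 (4.17-fold, adjusted p = 1.17e-06), and 2.45 ± 0.19 (5.47-fold) with antimiR-34a. At P5 it gave 0.25 ± 0.45, and 0.87 ± 0.23 (adjusted p = 0.00927) without the arrays that stood apart, which leave out mouse 4 at -3.19. In antimiR-34a mice at P5 it gave 0.78 ± 0.45 (adjusted p = 0.173), and 0.79 (adjusted p = 0.0135) without those arrays. At P5 in 21% O2 Col8a1 was well above background on 3 of 4 arrays with the scrambled antimiR and 2 of 4 with antimiR-34a. It thus passed the filter at P5 only through 85% O2, so a rise there was favoured in advance. Col8a2, which pairs with Col8a1, did not share the rise (-0.30 ± 0.10 at P14, with overlapping groups and not called by the methods' t-test, adjusted p = 0.073). Col7a1, the anchoring fibril that ties basement membrane to stroma, rose at both ages, by 0.35 ± 0.09 and 0.59 ± 0.13 with the scrambled antimiR and by 0.47 ± 0.09 and 0.76 ± 0.13 with antimiR-34a. The 0.35 was not called by the methods' t-test (adjusted p = 0.0693).

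Of the 4 transmembrane collagens tested, Col23a1 and Col17a1 were lower at P14 in scrambled antimiR mice, Col13a1 did not pass, and the probes of Col25a1 disagreed. Col23a1 was the one collagen called in opposite directions at P5 and P14 in both antimiR groups. In scrambled antimiR mice it read 0.26, 0.35, 0.49 and 0.38 in 21% O2 and 0.67, 1.01, 0.76 and 0.74 in 85% O2 at P5 (0.43 ± 0.08), and 1.28, 1.38, 1.27 and 1.16 against -0.09, -0.13, -0.23 and -0.14 at P14 (-1.42 ± 0.09, 2.68-fold lower, adjusted p = 4.19e-08). The groups were apart at both ages, and its other 2 probes had the same signs at both ages. The P5 call in antimiR-34a mice (0.21) was lost with the methods' t-test (adjusted p = 0.0729). Col17a1, a hemidesmosomal collagen of basal epithelial cells, changed by -1.66 ± 0.38 at P5, and by -1.14 ± 0.19 without the arrays that stood apart, and the methods' t-test over all arrays did not call it (adjusted p = 0.109). At P14 it changed by -2.55 ± 0.21, where it was well above background on 2 of 4 hyperoxic arrays. Col13a1 rose at P5 (0.55 ± 0.16) with overlapping groups, a call lost with the methods' t-test (adjusted p = 0.126). It gave 0.36 ± 0.16 in antimiR-34a mice at P5 (adjusted p = 0.0803) and -0.34 ± 0.15 in scrambled antimiR mice at P14 (adjusted p = 0.0597). In antimiR-34a mice at P14 it was called lower (-0.37, adjusted p = 0.0364). That call was lost with normexp, quantile normalization, the authors' table and no filter on dim probes. Col25a1 changed by -0.89 ± 0.14 at P5 in scrambled antimiR mice, or by -0.42 by the median over its probes, still called, and gave -0.21 ± 0.14 in antimiR-34a mice (adjusted p = 0.244). At P14 in scrambled antimiR mice its brightest probe gave -0.49 without passing (adjusted p = 0.247), while other probes were called higher (1.19 and 0.64, adjusted p = 0.00501 and 0.028). Col26a1, the one unclassed collagen tested, passed in no oxygen comparison (-0.08 to 0.03).

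**Figure D3:**
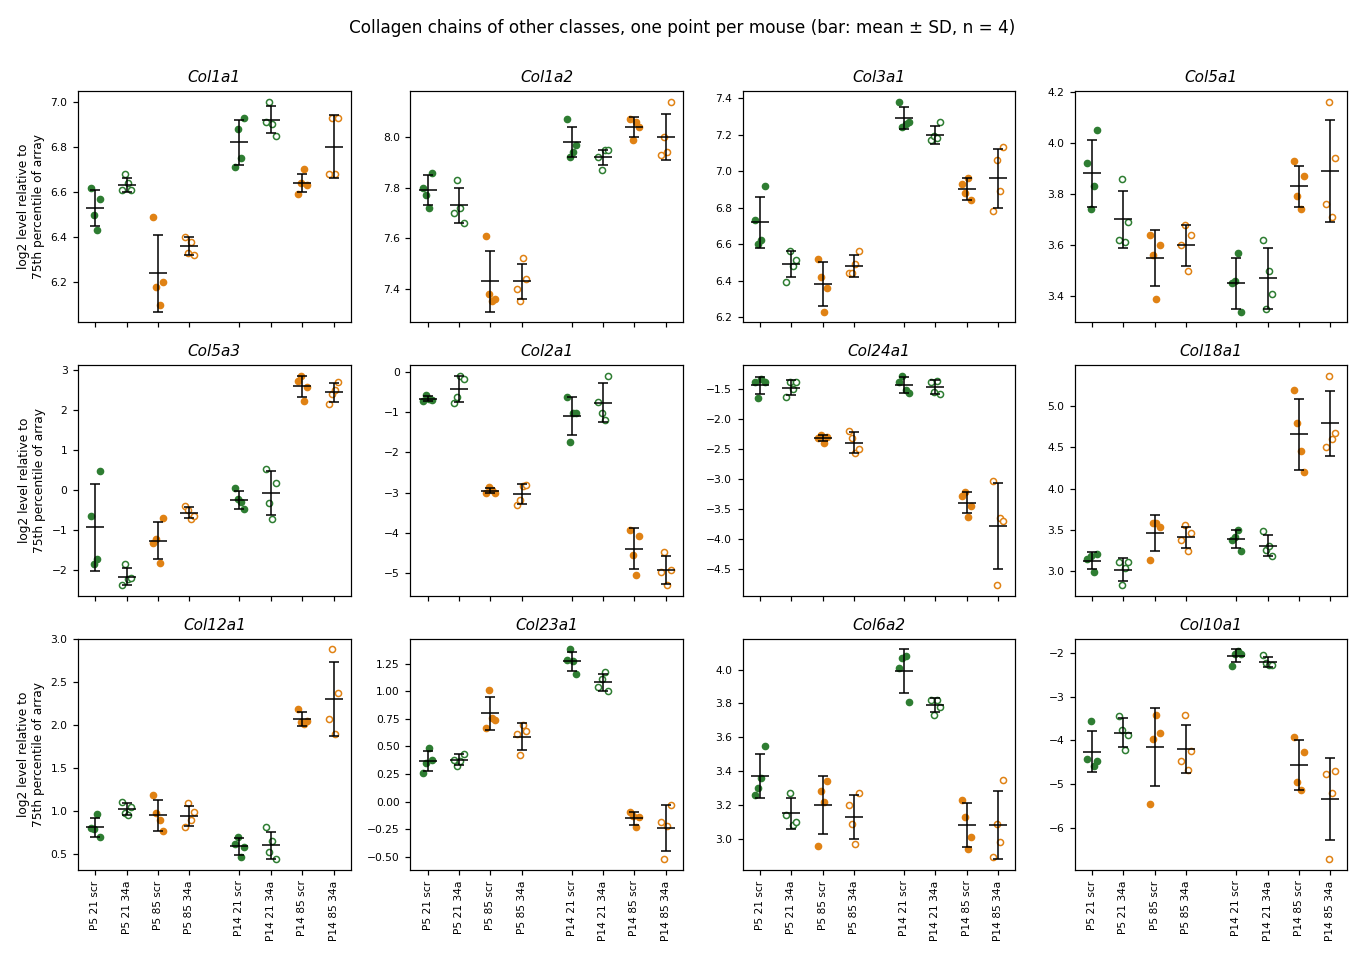
Relative level (y axis; log2, over the 75th percentile of the array) of 12 further collagen chains in each mouse, by age, oxygen level (green 21% O2, orange 85% O2) and antimiR (filled scrambled, open antimiR-34a), with mean ± SD of 4 mice. Col5a3, Col12a1 and Col18a1 are higher and Col2a1, Col10a1 and Col24a1 lower in 85% O2 at P14, and Col23a1 and Col5a1 change sides between the ages.

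The genes that build and cut collagen were read beside the chains, against the shares of all genes in scrambled antimiR mice, 21.5% higher and 24.1% lower at P5 and 29.9% and 31.2% at P14. The lists were not tested against those shares. Of 18 genes for the modification and folding of chains, 4 rose and 2 fell at P5 (median 0.13) and 11 rose and 2 fell at P14 (median 0.26) in scrambled antimiR mice. Colgalt1, which adds galactose to hydroxylysine, rose by 0.23 ± 0.06 at P5 and 1.14 ± 0.09 at P14, P4ha2, a prolyl 4-hydroxylase subunit, by 1.01 ± 0.11 at P14, and P3h2, a prolyl 3-hydroxylase, by 0.39 ± 0.10 and 0.81 ± 0.10. Plod2, which hydroxylates lysines of the telopeptides, rose by 0.58 ± 0.06 at P14. P4ha3 fell at both ages (-0.49 and -0.47). Without the arrays that stood apart, 7 rose and none fell at P14 in scrambled antimiR mice. With all arrays, 6 rose and 1 fell at P5 and 10 rose and 3 fell at P14 in antimiR-34a mice. In the same order of ages, procollagen cleavage genes counted 2 higher and 2 lower, then 4 higher and 2 lower of 6 (2 and 3, then 3 and 2, without the arrays that stood apart). Among them Bmp1, the C-proteinase, rose by 0.82 ± 0.08 at P14, and Pcolce2 and Tll1 changed by -1.65 ± 0.15 and -1.24 ± 0.17 there. Adamts14, an N-proteinase, fell at P5 (-0.41 ± 0.08) and rose at P14 (0.62 ± 0.10).

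Of the 5 crosslinking enzymes, 2 rose and 1 fell at each age, and without the arrays that stood apart 2 rose and 0 fell at P5. Loxl4 rose by 1.99 ± 0.18 at P5 and 1.5 ± 0.20 at P14, and Lox by 0.35 ± 0.08 and 0.93 ± 0.26, with groups that did not overlap in the 4 comparisons. Loxl1 changed by -0.37 ± 0.12 at P14. Of the 8 fibril-associated proteoglycans and Sparc, 3 rose and 3 fell at P5, and none rose and 5 fell at P14. Without the arrays that stood apart, 3 rose and 2 fell at P5, and 1 rose and 5 fell at P14. At P14 the largest change of this list was a fall of Lum. Prelp changed by -1.45 ± 0.17, Ogn by -1.07 ± 0.14, Aspn by -1.0 ± 0.12 and Bgn by -0.84 ± 0.17 at P14. Fmod rose by 0.75 ± 0.18 at P5. Lum changed by -2.34 ± 0.63 at P5, where its normoxic mice varied with an SD of 1.88, by -1.63 ± 0.50 without the arrays that stood apart and by -0.27 ± 0.63 (not passing) in antimiR-34a mice. The P5 call of Dcn (-1.01 ± 0.39) was lost without those arrays (-0.58, adjusted p = 0.127). Of the 8 collagen receptors, 4 rose and 1 fell at P5, and 4 rose and 2 fell at P14, or 3 and 2 without the arrays that stood apart. Itgb1, the beta chain of the collagen-binding integrins, rose by 0.30 ± 0.08 and 1.06 ± 0.12, and Ddr2, a receptor for fibrillar collagen, changed by -0.26 ± 0.07 and -0.80 ± 0.08. Itga11, an integrin chain that binds fibrillar collagen, rose at P5 (0.37 ± 0.08) and fell at P14 (-0.84 ± 0.15).

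Markers of other cells moved with the oxygen level as well, beside all-gene shares of 21.5% higher and 24.1% lower at P5 and 29.9% and 31.2% at P14. Of 8 lung fibroblast markers, 2 rose and 3 fell at P5 and 1 rose and 4 fell at P14 in scrambled antimiR mice, among them Pdgfra with -1.22 ± 0.07 and -2.44 ± 0.28. Of 6 pericyte markers 1 rose and 2 fell at P5 and 1 rose and 3 fell at P14, and of 8 endothelial markers 2 rose and 2 fell, then 4 rose and 2 fell. Of 8 lung epithelium markers 4 rose and 1 fell at each age. Heart muscle markers fell for 6 of 8 at both ages, skeletal muscle markers for 3 and then 4 of 7, and adipocyte markers for 2 of 3 and then 5 of 5. Of 6 mesothelium markers 1 rose at P5, and 1 rose and 2 fell at P14. Of the thymus markers, 0 of 3 passed at P5 and 5 of 6 fell at P14, and of the bone markers 1 rose and 1 fell of 3 at P5 and 1 rose of 5 at P14. The part of these cells in the collagen differences was not tested.

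From P5 to P14 in 21% O2, 18 of 41 collagens rose and 8 fell in scrambled antimiR mice, against 29.2% and 22.8% of all genes. All 6 type IV chains rose on their brightest probe. For Col4a4 (0.58 ± 0.13) the other probes gave 0.20 and -0.31 without passing, and the call was lost by the median over its probes (0.20, adjusted p = 0.201). Col4a3 went from 0.49, 0.53, 0.81 and 0.31 at P5 to 1.81, 1.92, 1.57 and 1.77 at P14, a rise of 1.23 ± 0.14 (2.35-fold, adjusted p = 1.39e-07), Col4a5 rose by 0.91 ± 0.08, Col4a2 by 0.79 ± 0.13 and Col4a1 by 0.64 ± 0.14. Col4a6 was at the threshold (0.21 ± 0.09, adjusted p = 0.0495) with overlapping groups, and most other settings lost the call. Col3a1 rose by 0.57 ± 0.07 and Col1a1 by 0.29 ± 0.07, and Col10a1 by 2.19 ± 0.39 (4.55-fold). Col1a2 rose by 0.19 ± 0.06 and by 0.17 without the arrays that stood apart (adjusted p = 0.0961, call lost), and it read -0.15 with quantile normalization, so its direction with age in 21% O2 depends on the scaling.

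Col25a1 had the largest fall with age. It read 1.18, 1.30, 1.24 and 1.11 at P5 and -1.65, -1.54, -2.12 and -0.96 at P14 in 21% O2, a difference of -2.78 ± 0.28 (6.85-fold), and its other 3 probes changed by -2.60, -1.58 and -2.30. Col6a4 changed by -1.65 ± 0.40, Col22a1 by -1.37 ± 0.21, Col26a1 by -1.15 ± 0.20 (not called by the methods' t-test, adjusted p = 0.0685) and Col9a2 by -0.98 ± 0.16. Without the arrays that stood apart Col26a1 changed by -0.70 ± 0.15, still called (adjusted p = 0.00114). In 85% O2, 16 rose and 12 fell, against 26.4% and 17% of all genes, and only 9 rose with quantile normalization. Col5a3 rose from -1.32, -1.22, -1.81 and -0.70 to 2.73, 2.85, 2.23 and 2.58 (3.86 ± 0.34, 14.5-fold, adjusted p = 2.21e-09), Col8a1 by 2.56 ± 0.36, Col12a1 by 1.11 ± 0.13 and Col18a1 by 1.20 ± 0.17. With all arrays none of these 4 passed with age in 21% O2, but without the arrays that stood apart Col8a1 (1.41 ± 0.26, adjusted p = 0.000222, against 0.75) and Col5a3 (1.15 ± 0.32, adjusted p = 0.00784, against 0.69) did. Col23a1 and Col2a1 changed by -0.94 ± 0.08 and -1.44 ± 0.24. Col6a5 was at least 2.59-fold lower at P14, though under normexp it gave -0.08 (adjusted p = 0.669). Col9a1 was at least 1.63-fold higher in 21% O2 and at least 1.52-fold higher in 85% O2. For Col9a1 in 85% O2, 2 of 4 arrays at P14 were well above background and the methods' t-test did not call it (adjusted p = 0.0678). Col9a1 passed the filter only through scrambled antimiR mice at P14 in 21% O2. Its rise with age in 21% O2 was therefore favoured in advance, and it counts among the risers in both oxygen levels.

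**Figure D4:**
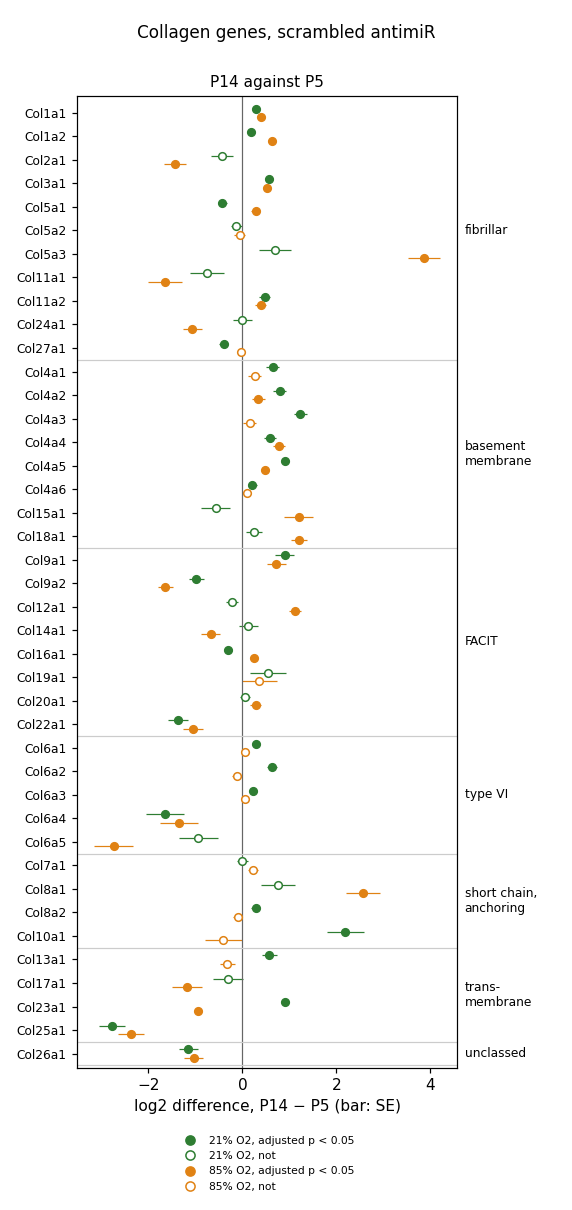
Log2 difference between P14 and P5 (x axis; bars are SE) for each tested collagen gene (y axis, by class) in scrambled antimiR mice, in 21% O2 (green) and 85% O2 (orange), with filled points for adjusted p under 0.05. The type IV chains lie further right in 21% O2 than in 85% O2 except for Col4a4, and Col5a3 in 85% O2 is the point furthest right, at 3.86.

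The oxygen response differed between P5 and P14, tested as an interaction in scrambled antimiR mice, for 21 of 41 collagens, 9 toward higher and 12 toward lower at P14, while 41% of all genes tested were called. Toward higher were Col5a3 (3.17 ± 0.48), Col8a1 (1.81 ± 0.51), Col15a1 (1.77 ± 0.43), Col12a1 (1.34 ± 0.19), Col18a1 (0.95 ± 0.23), Col5a1 (0.71 ± 0.13), Col16a1 (0.56 ± 0.12), Col1a2 (0.43 ± 0.09) and Col27a1 (0.37 ± 0.13). By the median over its probes Col15a1 gave 0.48 (adjusted p = 0.116), and Col1a2 lost its call with quantile normalization (0.27, adjusted p = 0.0571). Without the arrays that stood apart Col8a1 gave 1.16 (adjusted p = 0.00885), still called, and Col27a1 lost its call (0.35, adjusted p = 0.0796). Of those toward lower, Col2a1 lost its call without those arrays (-0.71, adjusted p = 0.169), and Col8a2 was at the threshold (-0.44, adjusted p = 0.05). The other probes of Col16a1 gave 0.33 (adjusted p = 0.0212) and -0.72 (adjusted p = 0.00591), so its probes were called in opposite directions. On their brightest probe Col4a4 (0.20) and Col25a1 (0.40) did not pass, while 2 other probes of each were called toward higher (0.89 and 1.40 for Col4a4, 1.64 and 1.03 for Col25a1). Without the arrays that stood apart Col25a1 passed on its brightest probe (0.70 ± 0.25, adjusted p = 0.036). Col17a1 (-1.51, adjusted p = 0.0022, against -0.89) and Col6a1 (-0.30, adjusted p = 0.0393, against -0.22) then passed toward lower. Toward lower, the largest of the genes measured in all 4 groups were Col10a1 (-2.59 ± 0.56) and Col23a1 (-1.85 ± 0.12). The 12 include Col6a5, which was not well above background on any array at P14 in 85% O2 and whose sign turned under normexp (0.32, adjusted p = 0.261). Of the type IV chains, Col4a3 (-1.08 ± 0.20) and Col4a5 (-0.44 ± 0.11) passed, and Col4a1 and Col4a2 gave -0.38 and -0.45 without passing.

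No collagen was called between antimiR-34a and scrambled antimiR, at either age or oxygen level. Of 39 collagens at P5, 0 were called in 21% O2 and 0 in 85% O2 by limma, against 0.117% and 0.096% of all genes called. At an unadjusted p under 0.05 there were 9 and 4 collagens (23.1% and 10.3%), beside 16.9% and 13.2% of all genes. Of 40 at P14, 0 were called in either oxygen level, against 0% and 2.36% of all genes, and at an unadjusted p under 0.05 there were 2 and 1 (5% and 2.5%), beside 10.5% and 16.1% of all genes. The methods' t-test also called 0 in each. The difference of the antimiR-34a effect between oxygen levels was called for 0 collagens at P5 and P14, against 0.0543% and 0.0631% of all genes, and at an unadjusted p under 0.05 for 7 and 0 (17.9% and 0%), beside 11.1% and 14.6% of all genes. These counts leave differences of moderate size undecided: in simulated data with a true log2 difference of 0.5, 46 of 100 probes were called at P5 in 85% O2 and 29 of 100 at P14.

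The collagens with the smallest p are given as values. In 21% O2 at P5, Col5a3 read -0.64, -1.85, -1.72 and 0.49 with the scrambled antimiR and -2.37, -1.85, -2.21 and -2.20 with antimiR-34a (-1.23 ± 0.40, adjusted p = 0.18), and the difference was -0.75 without the arrays that stood apart. Col4a4 differed by 0.26 ± 0.09 (adjusted p = 0.183) and Col3a1 by -0.23 ± 0.08 (adjusted p = 0.195), with groups that did not overlap. In 85% O2 at P5 the smallest p belonged to Col25a1, at 0.60, -0.01, 0.27 and 0.43 with the scrambled antimiR and 0.82, 0.48, 1.26 and 0.88 with antimiR-34a (0.54 ± 0.14, adjusted p = 0.174). These groups overlapped, through 1 mouse of each. Next were Col6a5 (-0.83 ± 0.29) and Col23a1 (-0.21 ± 0.08).

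At P14 the smallest p in 21% O2 were those of Col4a5 (-0.20 ± 0.09), Col17a1 (-0.48 ± 0.21), both with adjusted p = 0.459, and Col23a1 (-0.19 ± 0.09, adjusted p = 0.464). In 85% O2 at P14 they were those of Col20a1 (-0.24 ± 0.10, adjusted p = 0.239), Col1a1 (0.17 ± 0.08, adjusted p = 0.308) and Col10a1 (-0.77 ± 0.37, adjusted p = 0.317). For the difference between oxygen levels they were Col5a2 (-0.43 ± 0.12, adjusted p = 0.239), Col5a3 (1.93 ± 0.56) and Col25a1 (0.68 ± 0.20) at P5, and Col27a1 (0.25 ± 0.12, adjusted p = 0.347), Col2a1 (-0.86 ± 0.42) and Col20a1 (-0.24 ± 0.14) at P14. Single settings changed these counts. With array weights 6 collagens were called in 21% O2 at P14, namely Col4a5 (-0.22, adjusted p = 0.0162), Col23a1 (-0.21, adjusted p = 0.0167), Col6a1 (-0.16), Col6a2 (-0.25), Col19a1 (0.71) and Col25a1 (0.83). Leaving out 1 mouse at P14 in 85% O2 called 1 collagen, Col6a4 (-0.73, adjusted p = 0.0171) without mouse 1 of the antimiR-34a group and Col25a1 (1.03, adjusted p = 0.0295) without mouse 2, and Col25a1 was also called at P14 in both oxygen levels without the arrays that stood apart (0.97 and 1.03).

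**Figure D5:**
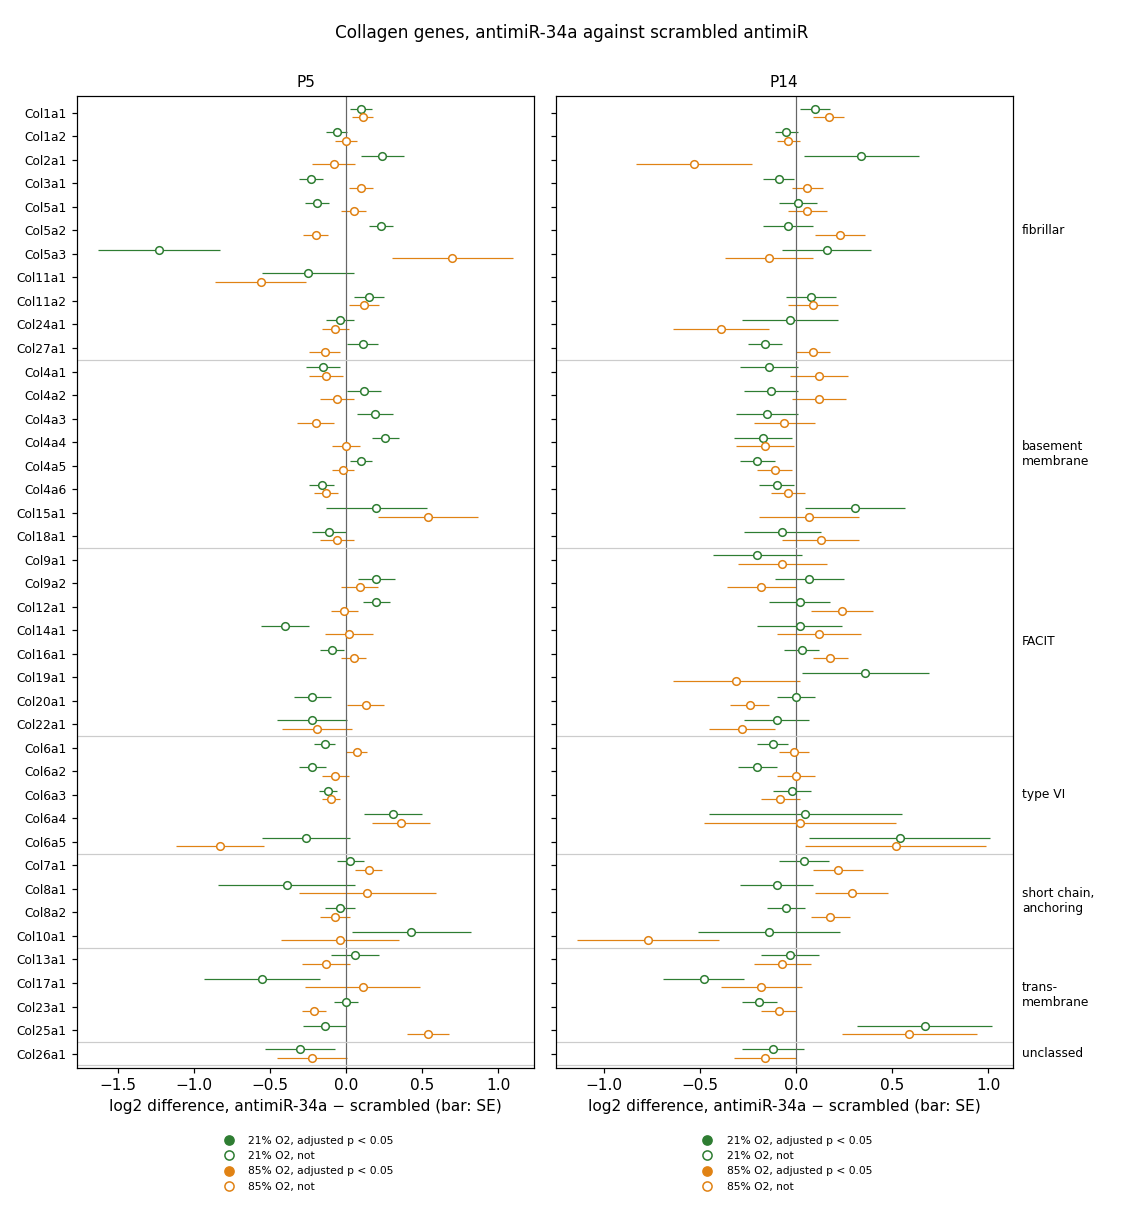
Log2 difference between antimiR-34a and scrambled antimiR (x axis; bars are SE) for each tested collagen gene (y axis, by class) at P5 (left) and P14 (right), in 21% O2 (green) and 85% O2 (orange). All points are open, since none had an adjusted p under 0.05, and the widest is Col5a3 in 21% O2 at P5, at -1.23 ± 0.40.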

How the data were processed

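Whole-lung RNA of 32 mice was hybridised to one-colour arrays, 4 mice in each of 8 groups taken from the sample labels. Per the file headers, the deposited array files hold spot intensity from Agilent Feature Extraction 10.7.3.1, after background subtraction and detrending inside each array, and arrays were not scaled to each other. A further table by the authors contains log2 values with the same distribution in all 32 columns (sorted values within 0.002), as quantile normalization gives, and correlated with the log2 processed signal per array at 0.9974 to 0.9999. It is centred on a column median of 5.994. That table served as an alternative. Probe names and mm9 positions come from the annotation in the array files.

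For each probe, log2 of the processed intensity minus the array's 75th percentile was used, with control spots and 244 outlier-marked values left out and spots of one probe averaged. Tested were probes that cleared background in all 4 mice of some group (35983 at P5, 38458 at P14, 39163 over both ages). Fits were run in R 4.3.3 with limma 3.58.1, files being read with the package data.table (version 1.17.8), with one mean per group, over the 16 arrays of an age or all 32 for age, and Benjamini-Hochberg adjustment over all probes. Oxygen level, antimiR, age and their interactions were compared. If a group had no array on which a probe cleared background, a bound is given, from the dimmest probe that did so on each array. Within a group, arrays correlated at 0.9748 to 0.9957 and none was deposited more than once. Arrays have no read depth. The number of mice and the signal over background limit the precision. The test was checked on simulated data: at a log2 difference of 1, 90 of 100 probes were called for oxygen at P5 and 63 of 100 at P14. The simulation changed 200 probes, far fewer than the genes called for oxygen. Its rates therefore do not measure the power of the oxygen tests.

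The members, classes, lists and comparisons were chosen with earlier results of these data known. Named genes were the chains of types I, III, IV and VI (Col6a1 to Col6a3), Col5a1, Col5a2, Col13a1, Col15a1 and Col18a1, up to 4 called genes per class and list with the largest change, up to 5 per antimiR, interaction or age comparison or, with none called, the 3 with the smallest p. The other collagens named in the text were chosen after their values were seen, as were cartilage and fibroblast markers. Alternatives were normexp background correction (offset 50), quantile normalization, the authors' table, no filter on dim probes, only the compared groups in the fit, a replicate block, array weights, the 75th percentile as a covariate, the methods' t-test, the median over the probes of a gene, narrower classes and leaving out each array. Leaving out the 6 arrays that stood apart was added after the data were seen. Marker levels are log2 of the summed linear levels of a list. Same-numbered mice did not deviate together throughout (correlations -0.35 to 0.50), so no pairing was used. Between the antimiR groups at P14 in 21% O2, 2 of 4 same-numbered pairs correlated above 0.1. In 85% O2 at P14, 3 of 4 mice matched their own number best, with same-number correlations of -0.07 to 0.08.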

Additional observations from a re-analysis of the deposited data

Results flagged for a closer look

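Single mice stood apart from the other 3 of their group in 19 of 256 tests (32 collagen genes, 8 groups, Dixon's test), where chance gives about 1 in 20, or 12.8. In P5, 21% O2, scrambled mice, mouse 2 was far from the others for Col10a1 (-3.56 against -4.58 to -4.42) and Col24a1 (-1.64 against -1.38 to -1.33), and mouse 4, with the skeletal muscle markers, for Col6a1 (5.99 against 5.86 to 5.87) and Col6a5 (-3.05 against -4.31 to -4.24). In P5, 85% O2, scrambled mice, mouse 1 was low for Col18a1 (3.14 against 3.54 to 3.59) and high for Col1a2 (7.61 against 7.35 to 7.38) and Col4a6 (1.44 against 1.28 to 1.30), and mouse 3 was low for Col6a1 (5.68 against 5.85 to 5.88) and Col6a5 (-4.87 against -4.40 to -4.39). In P5, 85% O2, antimiR-34a mice, mouse 3 was high for Col20a1 (-1.53 against -1.72 to -1.70) and low for Col6a3 (4.97 against 5.18 to 5.22), and mouse 2 was low for Col6a1 (5.82 against 5.91).

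At P14 in 21% O2, mouse 4 of the scrambled group was low for Col4a1 (5.73 against 5.92 to 5.95) and Col4a2 (5.63 against 5.75 to 5.77), mouse 3 was high for Col17a1 (-2.44 against -2.85 to -2.79), and mouse 4 of the antimiR-34a group was high for Col3a1 (7.27 against 7.17 to 7.19). In the P14, 85% O2, antimiR-34a group, mouse 2 was high for Col4a1 (6.72 against 6.01 to 6.11), mouse 4 low for Col4a3 (1.02 against 1.61 to 1.68), and mouse 1 high for Col6a4 (-1.61 against -4.80 to -4.45).

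The oxygen response of scrambled antimiR mice differed between the ages by an interaction test for 21 collagens. The response at P14 minus that at P5 was 3.17 for Col5a3, 1.81 for Col8a1, 1.77 for Col15a1, 1.34 for Col12a1, 0.95 for Col18a1, 0.71 for Col5a1, 0.56 for Col16a1, 0.43 for Col1a2 and 0.37 for Col27a1. It was -2.59 for Col10a1, -1.85 for Col23a1, -1.08 for Col4a3, -1.07 for Col24a1, -1.0 for Col2a1, -0.89 for Col13a1, -0.80 for Col14a1, -0.75 for Col6a2, -0.66 for Col9a2, -0.44 for Col4a5 and -0.38 for Col8a2. For Col6a5 the fit gave -1.80, which is not a measured size, since no P14 array in 85% O2 was well above background, and it turned to 0.32 under normexp. The value of Col15a1 was 0.48 (adjusted p = 0.116) by the median over its probes. Without the arrays that stood apart the calls of Col2a1 (-0.71, adjusted p = 0.169) and Col27a1 (0.35, adjusted p = 0.0796) were lost. Age cannot be told apart from slide, scan day or killing agent in these values.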

How the results depend on the processing

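The 136 named differences followed here are those that were called or were named for the smallest p. Named differences that did not pass are otherwise left out. Of 1471 values of these 136 under other settings than leaving out an array, 1464 kept their direction and 1376 also their side of the threshold. Of 1920 values with 1 array left out 1874 kept both. Directions turned for Col6a5 under normexp (0.05 for oxygen at P14 with the scrambled antimiR, 0.01 for antimiR-34a in 85% O2 at P5, 0.32 for the difference of the oxygen response between ages), for Col1a2 with age in 21% O2 (-0.15 with quantile normalization and with the authors' table) and for Col15a1 at P14 by the median over its probes (-0.08 scrambled, -0.36 antimiR-34a). For Col15a1 the probes disagree, and for the others the cause was not tested.

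Counts moved as follows. Collagens higher with age in 85% O2 were 9 with quantile normalization and 9 with the authors' table, against 16. Between antimiRs, against 0, they were 2 at P5 in 85% O2 with no filter on dim probes (Col25a1 and Col6a6), 6 at P14 in 21% O2 with array weights, 0 to 1 at P14 in 85% O2 with 1 array left out, and 1 at P14 in each oxygen level without the arrays that stood apart. With type IV chains alone, 33.3% of basement membrane collagens were higher at P14 with the scrambled antimiR (50% with all 8), and with types I, III and V alone, 16.7% of fibrillar collagens were lower at P14 in each antimiR group (30% with all). The median of all genes at P14 (oxygen, scrambled) moved by 0.13 under normexp, where 63.7% of called genes were higher against 47.8%. That share for oxygen with antimiR-34a at P14 was 55.6% under normexp and 56% with quantile normalization (44.8% as reported), for age in 85% O2 72.1% and 47.9% (60.7%), and for the difference of the oxygen response between ages 65.9% under normexp (53.7%).

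Replicate numbers are shared between groups, but mice with the same number deviated together in only some pairs. With the replicate number as a block, no count moved by over 1.5 times, and the calls of Col6a1 (oxygen at P14, antimiR-34a, -0.20, adjusted p = 0.0599) and Col4a6 (age in 21% O2, 0.21, adjusted p = 0.0539) were lost. The methods' t-test called 7 higher and 8 lower for oxygen at P5 and 11 and 12 at P14 in scrambled antimiR mice after Benjamini-Hochberg. Beside the losses given in the report, it did not call Col4a3 at P5 (adjusted p = 0.0633) or Col4a6, Col6a1, Col13a1 and Col14a1 at P14 (0.0675, 0.0733, 0.0522 and 0.0793) for oxygen in antimiR-34a mice, nor Col1a1, Col4a2, Col15a1, Col16a1, Col17a1 and Col20a1 with age in 85% O2 (0.0533, 0.191, 0.0983, 0.135, 0.0523 and 0.0992) and Col4a6 and Col8a2 with age in 21% O2 (0.17 and 0.131). For differences between 2 contrasts the methods' t-test gave no value. A fit of only the compared groups gave none for the difference of the antimiR-34a effect between oxygen levels. A slide block could not be fitted for oxygen or age and adds nothing to the antimiR comparisons, which lie within a slide. Chains near background (Col6a5, Col9a1, Col17a1, Col19a1, and Col8a1 at P5 in 21% O2) are limited by their signal. At P14 Col6a5, Col17a1 and Col19a1 passed the filter only through 21% O2 groups, so lower values in 85% O2 were favoured in advance.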
